A study of Mus musculus with 3 samples.

Results

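Messenger RNA of 34 genes of cholesterol and fatty acid synthesis, chosen by name from the 31053 genes of the count table, was followed in single T cells taken from mouse tumours. The genes fell into 3 groups. The sterol group held 23 genes, namely 19 enzymes that lead from acetyl-CoA towards cholesterol and 4 genes of sterol sensing and transport. The fatty acid group held 8 genes of synthesis, elongation and desaturation, and the efflux group held 3 genes that remove cholesterol or limit its uptake. No measured value was used to choose them, although results from the same cells were known when the list was made. MC38-Ova, a colon carcinoma line, and B16-Ova, a melanoma line, both carry ovalbumin and were grown under the skin of C57BL/6 mice. On day 14, CD11b- cells positive for CD3, TCRβ and CD90.2 were sorted and loaded in 1 droplet capture. Hashtag 2 marked MC38-Ova and hashtag 1 marked B16-Ova. The labels do not give the number of mice behind a hashtag, so each tumour was 1 pool of cells with no replicate. The tumour line, the mice and the hashtag of a pool cannot be told apart. The same cells carried antibody tags for PD-1 and Tim-3, and a tag that reads the plant lectin L-Pha, which binds branched N-glycans.

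Cells make cholesterol from acetyl-CoA through mevalonate, farnesyl diphosphate, squalene and lanosterol. When the sterol of the endoplasmic reticulum runs low, the protein encoded by Scap escorts SREBP2, the transcription factor encoded by Srebf2, to the Golgi for cleavage, and the cleaved factor switches on most enzymes of the pathway. Insig1 encodes an anchor that holds this complex back when sterol is plentiful. Excess sterol, in the form of oxysterols, activates LXR receptors, which induce the exporters Abca1 and Abcg1 and the ubiquitin ligase Mylip. T cells are known to increase sterol and fatty acid synthesis when they are activated and divide.

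The proximal promoters of the genes the results turn on are shown because the sterol genes moved together. RefSeq promoter windows on GRCm38.p6 were matched for 26 members and not for Fdps, Fdft1, Sqle, Stard4, Scd1, Scd2, Fads1 and Abcg1. The 150 bases before the RefSeq start follow for 4 enzymes, for Insig1 and, as a contrast, for Mylip, 5′ to 3′ on the strand of the gene. Capitals mark CCAAT on either strand (ATTGG on the other) and TCACNCCAC, a form of the sterol regulatory element.
Hmgcs1, chr13:119690201-119690350, + strand: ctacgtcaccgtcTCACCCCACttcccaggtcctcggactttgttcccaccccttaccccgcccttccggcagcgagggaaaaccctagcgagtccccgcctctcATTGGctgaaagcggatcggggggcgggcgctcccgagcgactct
Idi1, chr13:8885456-8885605, + strand: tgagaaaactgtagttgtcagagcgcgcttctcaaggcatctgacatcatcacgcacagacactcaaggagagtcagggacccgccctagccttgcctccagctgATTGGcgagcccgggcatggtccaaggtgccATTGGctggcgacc
Cyp51, chr5:4104698-4104847, - strand: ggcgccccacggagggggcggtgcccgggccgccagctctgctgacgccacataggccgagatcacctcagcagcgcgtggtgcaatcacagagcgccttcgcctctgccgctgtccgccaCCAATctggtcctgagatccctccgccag
Msmo1, chr8:64733579-64733728, - strand: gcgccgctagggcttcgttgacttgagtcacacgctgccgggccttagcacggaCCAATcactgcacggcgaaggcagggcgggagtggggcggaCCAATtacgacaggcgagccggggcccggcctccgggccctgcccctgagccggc
Insig1, chr5:28071262-28071411, + strand: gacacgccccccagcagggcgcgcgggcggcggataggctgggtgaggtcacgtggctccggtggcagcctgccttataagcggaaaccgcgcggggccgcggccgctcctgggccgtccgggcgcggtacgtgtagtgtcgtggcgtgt
Mylip, chr13:45389592-45389741, + strand: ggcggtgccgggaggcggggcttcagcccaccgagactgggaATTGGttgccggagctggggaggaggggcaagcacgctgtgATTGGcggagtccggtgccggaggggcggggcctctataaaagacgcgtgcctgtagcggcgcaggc

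In the 250 bases before the start, CCAAT on either strand was found in 17 of 19 sterol genes with a window, the exceptions being Acat2 and Scap. It was found in 37.5% of the 27025 genes with a window. Among the other members it was found in 1 of 5 fatty acid genes (Fasn) and in 1 of 2 efflux genes (Mylip). TCACNCCAC was found in 1 of 19 sterol genes (Hmgcs1) and in 1.22% of all genes, and the E-box CANNTG was found in 12 of 19 sterol genes and in 69.3% of all genes. CCAAT and CANNTG can share bases, as in CCAATTG. A match describes letters, not a bound site.

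UMIs, unique molecular identifiers, count RNA molecules. Of 19912 barcodes, 18429 had 500 or more genes and no more than 10% of UMIs from mitochondria, and 14992 of these took a hashtag. The pools held 8407 MC38-Ova cells with a median of 6289 RNA UMIs and 6585 B16-Ova cells with a median of 6121. Classes were set by raw UMIs of Cd8a, Cd8b1, Cd4, Foxp3, Cd3e, Fcer1g and Tyrobp. They gave 2544 MC38-Ova and 1792 B16-Ova CD8 cells, 960 and 777 Treg cells, 736 and 753 CD4 cells without Foxp3, and 780 and 455 innate-like cells. Of the markers outside the rule, Il2ra stood at 554 and 294 CPM (UMIs per 1000000 RNA UMIs of the sum) in MC38-Ova and B16-Ova Treg cells and at no more than 125 CPM in any other class. Cd40lg was highest in CD4 cells and Klrb1c in innate-like cells. Icos, also taken as a CD4 marker, did not follow the name. It stood at 930 and 846 CPM in MC38-Ova and B16-Ova CD4 cells, against 1386 and 1013 CPM in Treg cells. Summed RNA UMIs ran from 2592067 to 20937848 per class and pool. Marker RNA of other cell types was present: 30.01% to 46.4% of the cells of a class held at least 1 UMI of a macrophage, dendritic, B, fibroblast, melanoma, colon carcinoma or neutrophil marker. How much of it came from other cells was not tested, and deeper cells are more likely to hold such a UMI. The 4 melanoma markers summed to 28.4 CPM in MC38-Ova and 236 CPM in B16-Ova CD8 cells. Each was also lower in MC38-Ova CD4 cells, but each was higher in MC38-Ova Treg cells. In MC38-Ova and B16-Ova Treg cells Dct had 511 and 63 UMIs and Pmel had 320 and 34 UMIs. Tyrp1 had 203 and 47 UMIs and Mlana had 201 and 37 UMIs in the same cells. Why the order of the pools differed between classes was not tested. Sums and calls of members are therefore also given without cells holding such a marker UMI where these change them. Tumour ratios within cycling, granzyme C/F and Ifng cells, those of cells outside the 4 classes, and thinned means were read with all cells only.

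Sterol genes were lower in MC38-Ova than in B16-Ova T cells, efflux genes were higher, and fatty acid sums had ratios between 0.929 and 1.20. In CD8 cells the 23 sterol genes summed to 439 CPM in MC38-Ova and 682 CPM in B16-Ova, a ratio of 0.645 (95% interval 0.627 to 0.662). The interval is an exact conditional one and, like all intervals here, covers counting error only. In Treg cells, the regulatory class, the sum was 585 CPM in MC38-Ova and 942 CPM in B16-Ova, a ratio of 0.621 (0.596 to 0.647). CD4 cells had 516 CPM in MC38-Ova and 683 CPM in B16-Ova, a ratio of 0.755 (0.713 to 0.800). Innate-like cells had 369 CPM in MC38-Ova and 490 CPM in B16-Ova, a ratio of 0.753 (0.701 to 0.810). With hashtags at 300 UMIs and 5 times the other, the innate-like ratio was 0.947 and 0 sterol genes were lower past 1.5-fold (1.65% of all genes). The 3 efflux genes went the other way, with 64.7 CPM in MC38-Ova and 33.3 CPM in B16-Ova CD8 cells, a ratio of 1.95 (1.76 to 2.15). Treg, CD4 and innate-like cells had efflux ratios of 1.94 (1.64 to 2.30), 1.24 (1.04 to 1.47) and 1.73 (1.45 to 2.06). The fatty acid sum was 125 CPM in MC38-Ova and 130 CPM in B16-Ova CD8 cells, a ratio of 0.963 (0.910 to 1.02).

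**Figure D1:**
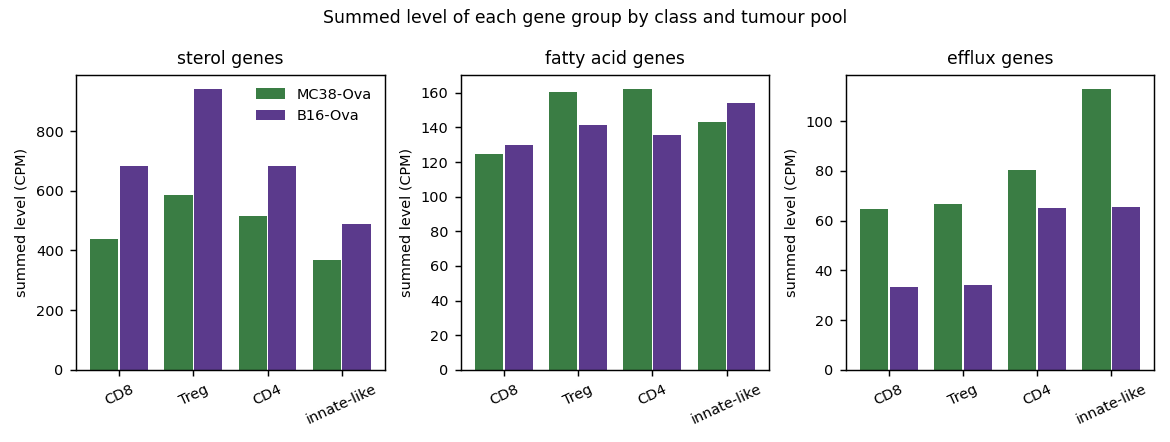
Summed level (CPM) of the sterol, fatty acid and efflux genes in each T cell class, with MC38-Ova left of B16-Ova. Each bar is 1 pool, so there is no replicate error; in CD8 cells the sterol bars stand at 439 and 682 CPM and the efflux bars at 64.7 and 33.3 CPM.

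With 1 pool per tumour no test was possible, so genes were counted as past 1.5-fold when both sums together held at least 100 UMIs. In CD8 cells 14 of 23 sterol genes were lower in MC38-Ova past that fold and 0 were higher, against 5.7% of 9758 genes lower and 5.47% higher. Their median log2 ratio was -0.80, against -0.00 over all genes. In Treg cells 14 of 21 measured sterol genes were lower (3.59% of 7999 genes, and 4.95% higher), in CD4 cells 4 of 16 (2.72% of 6774 genes, and 3.68% higher) and in innate-like cells 5 of 12 (1.76% of 6575 genes, and 4.15% higher). Ratios were below 1 in all 4 classes for 18 of 23 sterol genes, and the exceptions were Ebp, Ggps1, Scap, Pmvk and Lss. The share of all genes below 1 in all 4 classes was not counted. Cells outside the 4 classes had a sterol sum of 515 CPM in MC38-Ova and 812 CPM in B16-Ova, with 13 of 23 genes lower (4.2% of all genes lower and 7.41% higher). Of the efflux genes with enough UMIs, 3 of 3 were higher past 1.5-fold in CD8, 2 of 2 in Treg, 1 of 2 in CD4 and 1 of 2 in innate-like cells.

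Among the enzymes that build farnesyl diphosphate, Idi1, the isomerase of isopentenyl diphosphate, differed most in CD8 cells, with 13.4 CPM in MC38-Ova and 41.6 CPM in B16-Ova, a ratio of 0.322 (0.279 to 0.370). Hmgcs1, which makes HMG-CoA, stood at 26.4 CPM in MC38-Ova and 47.7 CPM in B16-Ova CD8 cells, and at 27.8 and 67.7 CPM in MC38-Ova and B16-Ova Treg cells. Fdps, farnesyl diphosphate synthase, stood at 12.8 CPM in MC38-Ova and 26.2 CPM in B16-Ova CD8 cells. These enzymes act in succession, and each was lower in MC38-Ova in all 4 classes. The innate-like Fdps ratio was 0.334 (0.219 to 0.506). Pmvk, phosphomevalonate kinase, stood at 22.1 CPM in MC38-Ova and 36.9 CPM in B16-Ova CD8 cells, but at 24.1 and 21.5 CPM in MC38-Ova and B16-Ova CD4 cells. Acat2, the thiolase of the first step, stood at 7.69 CPM in MC38-Ova and 13.4 CPM in B16-Ova CD8 cells. Reads of Acat2 may be shared with its near-identical copy Acat3, so its level is uncertain. The kinase Mvk (7.64 CPM in MC38-Ova, 9.69 CPM in B16-Ova) and the decarboxylase Mvd (6.93 CPM in MC38-Ova, 9.23 CPM in B16-Ova) differed by less than 1.5-fold in CD8 cells. Ggps1, which makes the geranylgeranyl diphosphate used to anchor proteins in membranes and lies on a side branch, had 34.1 CPM in MC38-Ova and 32.9 CPM in B16-Ova CD8 cells, a ratio of 1.04 (0.930 to 1.16).

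After farnesyl diphosphate, Cyp51, lanosterol demethylase, was the sterol gene with the lowest ratio in Treg and CD4 cells. It stood at 21.9 CPM in MC38-Ova and 61.8 CPM in B16-Ova CD8 cells, a ratio of 0.354 (0.317 to 0.396). In Treg cells Cyp51 stood at 36.1 CPM in MC38-Ova and 102 CPM in B16-Ova, a ratio of 0.353 (0.303 to 0.410). CD4 cells had 30.3 CPM in MC38-Ova and 64.5 CPM in B16-Ova, and innate-like cells 18.1 CPM in MC38-Ova and 26.6 CPM in B16-Ova. The pools therefore kept their order for Cyp51 in every class. Msmo1, the methylsterol oxidase of the next demethylation, followed it with ratios of 0.400 (0.347 to 0.461) in CD8 and 0.424 (0.355 to 0.505) in Treg cells. Hsd17b7, a keto-reductase of the same demethylation, stood at 4.30 CPM in MC38-Ova and 11.7 CPM in B16-Ova CD8 cells, and Nsdhl, its dehydrogenase, at 9.55 and 13.2 CPM in MC38-Ova and B16-Ova CD8 cells. Sqle, squalene epoxidase, stood at 7.88 CPM in MC38-Ova and 19.3 CPM in B16-Ova CD8 cells, and Fdft1, squalene synthase, at 20.8 and 36.9 CPM in MC38-Ova and B16-Ova CD8 cells. Fdft1 commits farnesyl diphosphate to sterol, and both Sqle and Fdft1 were past 1.5-fold in these cells. Lss, which closes the rings of lanosterol, stood at 3.96 CPM in MC38-Ova and 6.97 CPM in B16-Ova CD8 cells. Dhcr7, a reductase of the last steps, stood at 10.2 CPM in MC38-Ova and 18.1 CPM in B16-Ova CD8 cells. The reductase Tm7sf2 was rarely seen, with 39 UMIs in MC38-Ova and 81 UMIs in B16-Ova CD8 cells. Sc5d, a desaturase, differed less, with 25.2 CPM in MC38-Ova and 34.4 CPM in B16-Ova CD8 cells. Ebp, the sterol isomerase, did not follow the other enzymes: it stood at 91.5 CPM in MC38-Ova and 89.5 CPM in B16-Ova CD8 cells, a ratio of 1.02 (0.956 to 1.09), and was higher in MC38-Ova innate-like cells with a ratio of 1.30 (1.06 to 1.61).

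Of the control genes, Insig1, itself a target of SREBP2, stood at 23.9 CPM in MC38-Ova and 39.1 CPM in B16-Ova CD8 cells, a ratio of 0.611 (0.543 to 0.687). In Treg cells it stood at 32.1 CPM in MC38-Ova and 62.5 CPM in B16-Ova. Srebf2 differed less, with 35.9 CPM in MC38-Ova and 45.5 CPM in B16-Ova CD8 cells, a ratio of 0.790 (0.714 to 0.874). Stard4, a cholesterol carrier of the cytosol, stood at 24.9 CPM in MC38-Ova and 35.5 CPM in B16-Ova CD8 cells. Scap, the escort, had a ratio near 1 in CD8 cells, with 12.5 CPM in MC38-Ova and 12.7 CPM in B16-Ova, a ratio of 0.981 (0.816 to 1.18).

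The fatty acid genes gave no common direction between the tumours. Acly, which makes cytosolic acetyl-CoA from citrate, stood at 49.4 CPM in MC38-Ova and 57.2 CPM in B16-Ova CD8 cells, a ratio of 0.863 (0.790 to 0.942). Fasn, the fatty acid synthase, stood at 24.3 CPM in MC38-Ova and 26.9 CPM in B16-Ova CD8 cells, and Acaca, acetyl-CoA carboxylase, at 8.21 and 9.23 CPM in MC38-Ova and B16-Ova CD8 cells. Both Fasn and Acaca lay within counting error of a ratio of 1 in CD8 cells. In CD4 cells Fasn stood at 34.3 CPM in MC38-Ova and 21.5 CPM in B16-Ova, a ratio of 1.59 (1.20 to 2.13). Scd2, a stearoyl-CoA desaturase, was the one fatty acid gene above 1 in all 4 classes, with 24.5 CPM in MC38-Ova and 18.6 CPM in B16-Ova CD8 cells, a ratio of 1.32 (1.15 to 1.52). Elovl6, which elongates palmitate, had a ratio of 1.06 (0.872 to 1.28) in CD8 cells and 1.33 (1.06 to 1.69) in Treg cells. The desaturases Scd1, Fads1 and Fads2 were close to the limit of detection, with 104, 302 and 70 UMIs over all 4 classes and both pools. In Treg cells Scd1 had 24 UMIs in MC38-Ova and 0 in B16-Ova. The summed fatty acid ratio above 1 in Treg cells, 1.14 (1.04 to 1.25), and in CD4 cells, 1.20 (1.06 to 1.35), were 0.906 (0.787 to 1.04) and 0.828 (0.701 to 0.976) without cells holding a non-T marker UMI.

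The efflux genes were each above 1 in all 4 classes. Abcg1, a sterol exporter, stood at 20.5 CPM in MC38-Ova and 8.59 CPM in B16-Ova CD8 cells, a ratio of 2.39 (1.98 to 2.90), and at 25.01 and 14.4 CPM in MC38-Ova and B16-Ova Treg cells. Mylip, whose protein marks lipoprotein receptors for degradation, stood at 39.9 CPM in MC38-Ova and 23.6 CPM in B16-Ova CD8 cells, a ratio of 1.69 (1.503 to 1.91). In CD4 cells the Mylip ratio was 1.06 (0.864 to 1.30), within counting error of 1. Abca1, the other exporter, had 89 UMIs in MC38-Ova and 19 UMIs in B16-Ova CD8 cells, a ratio of 3.85 (2.33 to 6.70). Abca1 and Abcg1 are also expressed by macrophages, whose 8 markers summed to 51.7 CPM in MC38-Ova and 52.4 CPM in B16-Ova CD8 cells, to 74.6 and 248 CPM in Treg, 118 and 57.9 CPM in CD4, and 188 and 53.2 CPM in innate-like cells of the same pools. Without cells holding a non-T marker UMI the summed efflux ratio was 2.14 (1.86 to 2.46) in CD8 cells and 2.32 (1.83 to 2.97) in Treg cells.

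**Figure D2:**
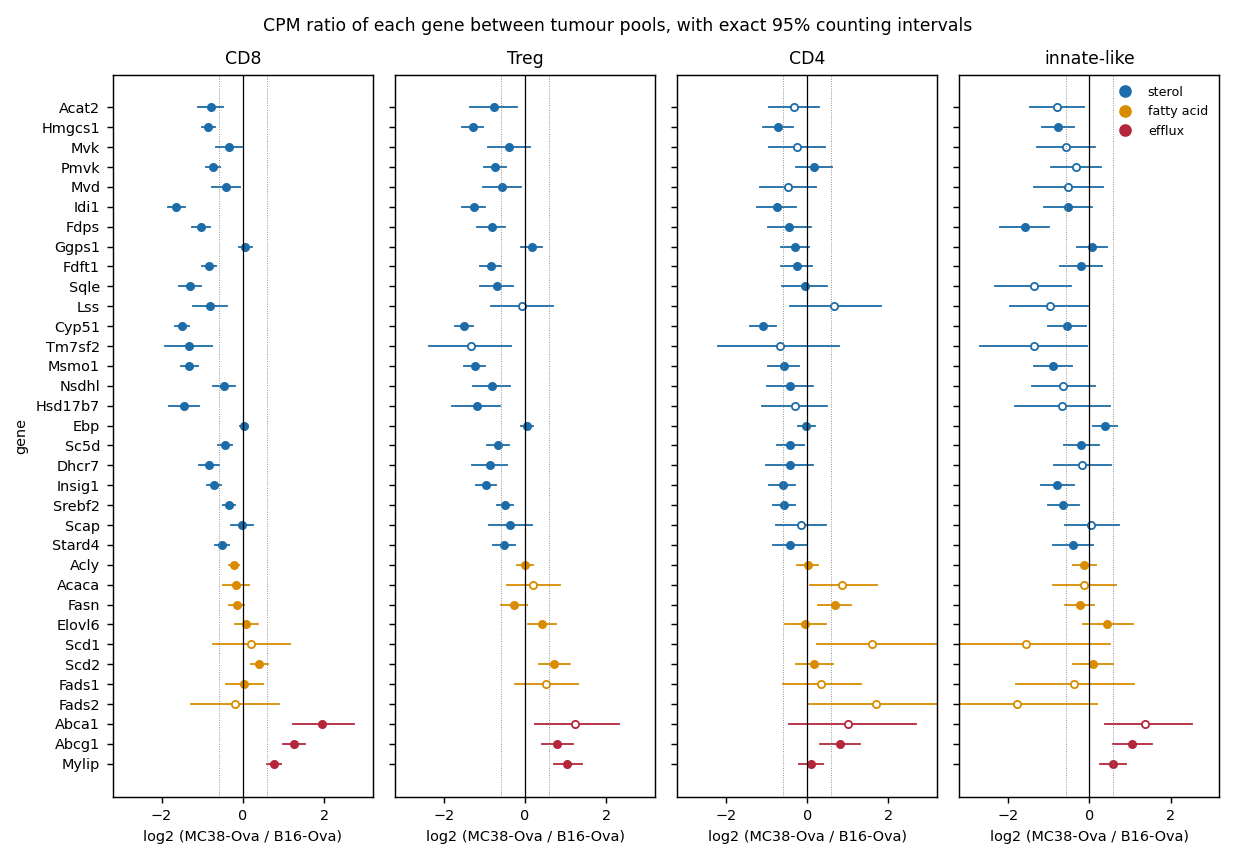
Log2 ratio of the CPM of each member in MC38-Ova over B16-Ova in the 4 classes, with exact 95% intervals for counting error; colours mark sterol, fatty acid and efflux genes, open points had under 100 UMIs, dotted lines mark 1.5-fold, and genes with 0 UMIs in a pool have no point. In CD8 cells Idi1 (ratio 0.322) and Cyp51 (0.354) lie far left, Ebp (1.02) and Ggps1 (1.04) lie at the line of no difference, and the 3 efflux genes lie to the right.

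The sterol difference was also read within narrower sets of cells. Without cells holding a non-T marker UMI, CD8 cells had 426 CPM in MC38-Ova and 654 CPM in B16-Ova, a ratio of 0.651 (0.627 to 0.676), and 14 of 22 measured genes were lower past 1.5-fold and 0 were higher (5.41% of all genes lower and 5.29% higher). The Treg ratio was then 0.628 (0.591 to 0.667), with 9 of 13 measured genes lower past 1.5-fold (3.84% of all genes) where 14 of 21 were with all cells. The innate-like ratio moved to 0.9496 (0.855 to 1.06). The 10 cycling genes summed to 527 CPM in MC38-Ova and 958 CPM in B16-Ova CD8 cells, but to 437 and 211 CPM in MC38-Ova and B16-Ova innate-like cells. Without any Mki67 or Top2a UMI the CD8 sterol ratio was 0.752 (0.721 to 0.784), with 7 of 21 measured genes lower past 1.5-fold (1.94% of all genes). Among cells with 5000 to 15000 RNA UMIs it was 0.722, with 9 of 21 (2.27% of all genes). Within cycling CD8 cells it was 0.616 (0.583 to 0.651), with 546 CPM in MC38-Ova and 886 CPM in B16-Ova. Cyp51 stood at 38.2 CPM in MC38-Ova and 88.0 CPM in B16-Ova cycling CD8 cells, a ratio of 0.434 (0.353 to 0.530). Melanoma markers summed to 19.7 CPM in MC38-Ova and 651 CPM in B16-Ova cycling CD8 cells, and fibroblast markers to 226 and 10.5 CPM. The part of these markers in the cycling ratios was not tested. When each cell was thinned to 4000 RNA UMIs, the enzymes of sterol synthesis gave a mean of 1.30 UMIs per MC38-Ova and 1.85 UMIs per B16-Ova CD8 cell, leaving out 420 and 241 shallower cells. In Treg cells the thinned means were 1.75 UMIs in MC38-Ova and 2.97 UMIs in B16-Ova, against unthinned sums of these enzymes of 460 and 749 CPM.

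Across the 4 classes, the sterol sum was highest in Treg cells of each pool. In this and the following comparisons UMIs were summed per pool. edgeR's quasi-likelihood test was fitted with pools as blocks, p-values were adjusted by Benjamini-Hochberg over all genes, and genes were called at 0.05. The p-values measure the spread between sums of cells from 2 pools of 1 capture, not between animals, and that spread was largely borrowed across genes. Calls depended on this fit: with cycling in CD8 cells edgeR called 20 members, DESeq2 called 3 and edgeR without the pool block called 2. Of 10537 genes these fits called 1571 higher and 1322 lower, 687 and 348, and 640 and 145. In cycling Treg cells and for PD-1 in CD8 cells both of these alternatives called 0 members. CD8 over Treg called 3 of 23 sterol genes lower, against 8.41% of 11188 genes lower and 7.04% higher. Msmo1 stood at 13.9 and 34.7 CPM in CD8 cells of the MC38-Ova and B16-Ova pools, against 28.3 and 66.8 CPM in Treg cells of the same pools (log2 fold -0.85 ± 0.18 SE, edgeR adjusted p = 0.017). Srebf2 stood at 35.9 and 45.5 CPM in CD8 cells, against 54.7 and 76.6 CPM in Treg cells (log2 fold -0.55 ± 0.11, edgeR adjusted p = 0.014), and Insig1 was also lower (log2 fold -0.43 ± 0.12, edgeR adjusted p = 0.048). In each pool the 3 genes were lower in CD8 than in Treg cells, while their ranges over the pools overlap for Msmo1 and Insig1. Of all sterol genes 20 of 23 were lower in CD8 than in Treg cells in both pools, with a median log2 fold of -0.21 against 0.01 over all genes. In Treg over CD4 cells 13 of 23 sterol genes were higher and 2 were lower in both pools. The share of all genes that kept 1 direction in both pools was not counted in this or later comparisons. Elovl6 stood at 11.8 and 11.2 CPM in CD8 cells, against 28.3 and 21.2 CPM in Treg cells (log2 fold -0.97 ± 0.16, edgeR adjusted p = 0.0070), with no overlap. Msmo1, Srebf2, Insig1 and Elovl6 were also called lower in CD8 than in Treg cells without cells holding a non-T marker UMI. Innate-like over CD4 called Ebp lower (66.9 and 51.3 CPM, against 92.9 and 94.3 CPM in CD4 cells; log2 fold -0.53 ± 0.12, edgeR adjusted p = 0.036) and Srebf2 lower (log2 fold -0.58 ± 0.12, edgeR adjusted p = 0.027), against 5.12% of genes lower. It called Abca1 higher, with 10.0 and 3.86 CPM in innate-like cells, against 3.33 and 1.65 CPM in CD4 cells (edgeR adjusted p = 0.048), against 4.35% of genes higher. The Abca1 call rests on 6 to 51 UMIs per sum, and it was not made without cells holding a non-T marker UMI. CD8 over CD4 (3.3% of genes higher and 3.58% lower) and Treg over CD4 (1.98% higher and 1.37% lower) called 0 members by edgeR. At an unadjusted edgeR p under 0.05 there were 7 and 9 of 34 members, against 2748 and 2031 of 11188 genes. DESeq2 called 0 members in CD8 over CD4 and 1 in Treg over CD4.

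Cycling CD8 cells carried more sterol and fatty acid RNA and less efflux RNA than non-cycling ones. Cycling cells held at least 1 UMI of both Mki67 and Top2a, and non-cycling cells held neither. They numbered 230 and 283 cycling cells in MC38-Ova and B16-Ova, against 1740 and 1089 non-cycling cells. Of the sterol genes 11 of 23 rose and 0 fell, against 14.9% of 10537 genes higher and 12.5% lower, and 20 of 23 were higher in both pools. Their median log2 fold was 0.52, against -0.03 over all genes. Idi1 stood at 23.6 and 63.3 CPM in cycling CD8 cells of MC38-Ova and B16-Ova, against 10.7 and 27.2 CPM in non-cycling cells (log2 fold 1.07 ± 0.17, edgeR adjusted p = 5.7e-05). Cyp51 stood at 38.2 and 88.0 CPM in cycling cells, against 17.1 and 42.8 CPM in non-cycling cells (log2 fold 0.98 ± 0.15, edgeR adjusted p = 4.2e-05). Both genes were higher in cycling cells within each pool, and non-cycling B16-Ova cells stood above cycling MC38-Ova cells for both. Fdps (0.96), Sqle (0.91), Acat2 (0.82), Fdft1 (0.80), Hmgcs1 (0.73), Mvk (0.71), Stard4 (0.70), Dhcr7 (0.67) and Pmvk (0.51) also rose, with their log2 folds in brackets. Msmo1 stood at 15.5 and 43.7 CPM in cycling cells, against 13.1 and 27.5 CPM in non-cycling cells, and was not called. The branch enzyme Ggps1 stood at 33.0 and 27.7 CPM in cycling cells, against 35.4 and 35.4 CPM in non-cycling cells, and was not called either.

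Of the fatty acid genes 6 of 8 rose with cycling in CD8 cells. Fasn stood at 35.2 and 35.0 CPM in cycling MC38-Ova and B16-Ova cells, against 22.3 and 21.9 CPM in non-cycling cells (log2 fold 0.56 ± 0.17, edgeR adjusted p = 0.018), with no overlap. Acaca (log2 fold 0.75), Scd2 (0.72) and Fads1 (1.95) rose too. Scd1 had 14 and 12 UMIs in cycling cells, against 5 and 1 UMIs in non-cycling cells, and Fads2 had 11 and 10 UMIs, against 3 and 1 UMIs. Fads1, Scd1 and Fads2 rested on few UMIs. Fibroblast markers summed to 226 and 10.49 CPM in cycling cells of MC38-Ova and B16-Ova, against 6.91 and 6.22 CPM in non-cycling cells. Melanoma markers summed to 19.7 and 651 CPM in cycling cells, against 22.9 and 23.2 CPM in non-cycling cells. When cells holding a non-T marker UMI were left out, 0 fatty acid genes were called, and Cyp51, Fdft1, Idi1, Hmgcs1 and Stard4 were called higher. Cells also differed in depth, with medians of 12312.5 and 15834 RNA UMIs in cycling cells, against 6230 and 6335 in non-cycling cells. Among cells with 5000 to 15000 RNA UMIs, Ebp, Cyp51, Fdft1, Idi1, Stard4 and Fads1 were called higher, and the Fasn log2 fold turned to -0.056.

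All 3 efflux genes fell with cycling in CD8 cells. Mylip stood at 27.0 and 7.52 CPM in cycling cells of MC38-Ova and B16-Ova, against 46.8 and 35.0 CPM in non-cycling cells (log2 fold -1.51 ± 0.23, edgeR adjusted p = 3.9e-05), with no overlap. Abcg1 stood at 14.9 and 2.77 CPM in cycling cells, against 21.7 and 12.7 CPM in non-cycling cells (log2 fold -1.26 ± 0.28, edgeR adjusted p = 0.0017). Abca1 had 9 and 0 UMIs in cycling cells, against 59 and 16 UMIs in non-cycling cells. Mylip and Abcg1 were also called lower without cells holding a non-T marker UMI and among cells with 5000 to 15000 RNA UMIs.

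In Treg cells fewer members moved with cycling, and the groups were smaller, with 80 and 98 cycling cells in MC38-Ova and B16-Ova, against 642 and 469 non-cycling cells. Acat2, Idi1, Fdps and Pmvk rose, which is 4 of 22 tested sterol genes, against 16.4% of 9163 genes higher and 12.9% lower. The sterol share was thus close to that of all genes. Idi1 stood at 34.0 and 67.3 CPM in cycling Treg cells, against 17.7 and 37.3 CPM in non-cycling cells (log2 fold 0.90 ± 0.22, edgeR adjusted p = 0.00095). Fasn stood at 33.3 and 38.4 CPM in cycling cells, against 17.5 and 23.0 CPM in non-cycling cells (log2 fold 0.84 ± 0.23, edgeR adjusted p = 0.0034), and Fads1 rose as well. Mylip fell, with 23.8 and 10.1 CPM in cycling cells, against 43.9 and 22.6 CPM in non-cycling cells (log2 fold -0.99 ± 0.25, edgeR adjusted p = 0.0016). Elovl6 fell too, with 16.6 and 16.8 CPM in cycling cells, against 33.6 and 20.6 CPM in non-cycling cells (log2 fold -0.67 ± 0.26, edgeR adjusted p = 0.046). Macrophage markers summed to 16.6 and 681 CPM in cycling Treg cells, against 97.6 and 32.9 CPM in non-cycling ones. Fibroblast markers summed to 467 and 1.35 CPM in cycling Treg cells, against 174 and 7.94 CPM in non-cycling ones, and melanoma markers to 6.33 and 14.1 CPM, against 28.0 and 46.0 CPM. Idi1 and Elovl6 were the only members called without cells holding a non-T marker UMI, and among cells with 5000 to 15000 RNA UMIs 0 members were called. Whether cycling acts differently in CD8 and Treg cells was not tested.

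**Figure D3:**
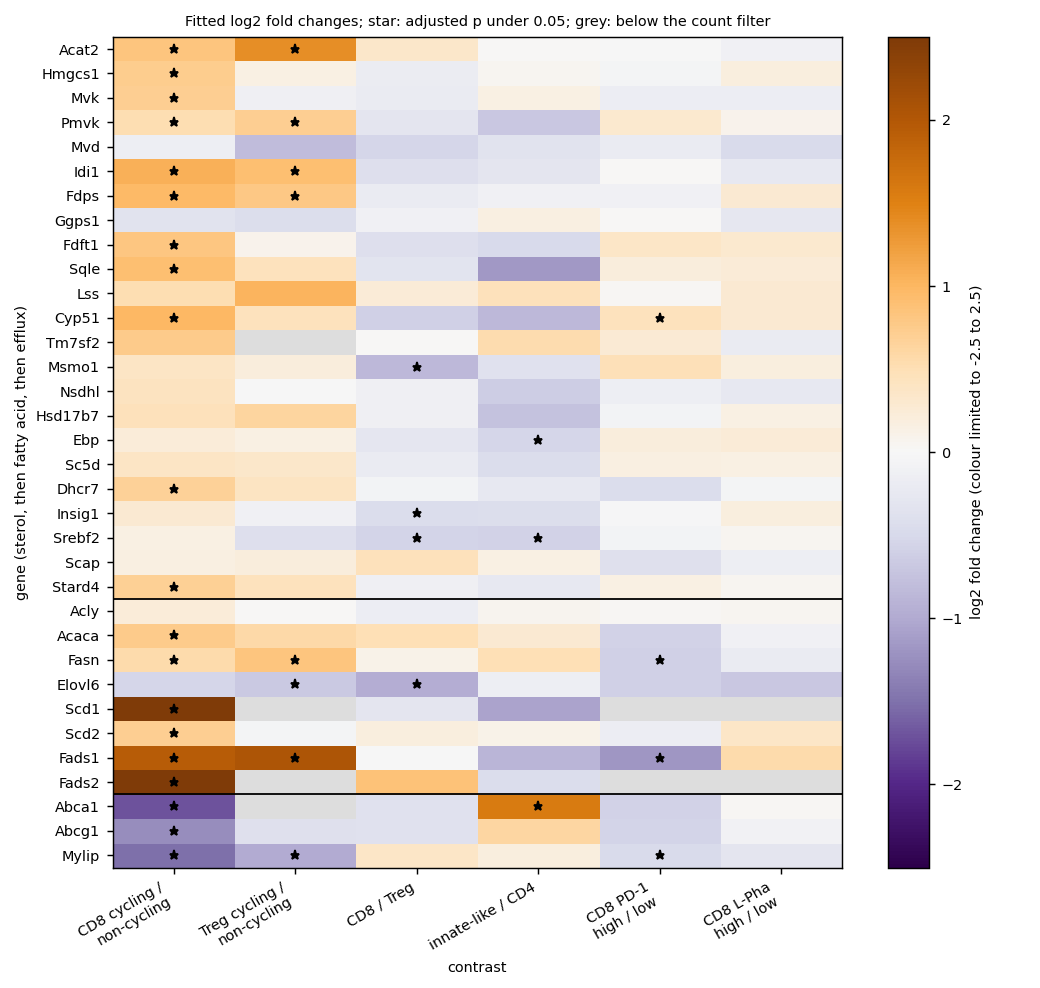
Heat map of the fitted log2 fold of each member (down the page) in the contrasts that called members and for L-Pha (across), orange for higher in the group named first and purple for lower; stars mark an edgeR adjusted p under 0.05 and grey marks genes below the count filter. In the first column, cycling over non-cycling CD8 cells, 17 members are higher and the 3 efflux genes are lower, and the L-Pha column holds no star.

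The tumour difference in sterol RNA was also present within CD8 cells rich in effector transcripts. Granzyme C/F cells held at least 5 UMIs of Gzmc and Gzmf, which encode granzymes, and Ifng cells held at least 5 UMIs of Ifng, which encodes interferon gamma, and none of Gzmc and Gzmf. Granzyme C/F cells numbered 83 in MC38-Ova and 127 in B16-Ova, and Ifng cells numbered 298 and 142. As each tumour was 1 pool, the ratios below carry no test, and they were not planned. The sterol sum was 497 CPM in MC38-Ova and 844 CPM in B16-Ova granzyme C/F cells, a ratio of 0.590 (0.537 to 0.647), and 424 and 749 CPM in MC38-Ova and B16-Ova Ifng cells, a ratio of 0.566 (0.525 to 0.611). Cyp51 stood at 18.7 CPM in MC38-Ova and 88.9 CPM in B16-Ova granzyme C/F cells, a ratio of 0.211 (0.129 to 0.328), and at 23.1 and 72.3 CPM in MC38-Ova and B16-Ova Ifng cells, a ratio of 0.319 (0.236 to 0.429). Idi1 stood at 19.6 CPM in MC38-Ova and 58.7 CPM in B16-Ova granzyme C/F cells, and at 13.7 and 43.1 CPM in MC38-Ova and B16-Ova Ifng cells. Both genes were lower in MC38-Ova in either kind of cell, and the intervals of the Cyp51 ratios overlap between granzyme C/F and Ifng cells. Ggps1 lay within counting error of a ratio of 1 in both, with 1.06 (0.680 to 1.64) in granzyme C/F cells and 1.16 (0.795 to 1.71) in Ifng cells. Elovl6 stood at 6.81 CPM in MC38-Ova and 5.96 CPM in B16-Ova granzyme C/F cells, and at 8.70 and 8.72 CPM in MC38-Ova and B16-Ova Ifng cells, also within counting error of 1. Acly and Fasn were lower in MC38-Ova granzyme C/F cells, with ratios of 0.625 (0.444 to 0.866) and 0.630 (0.396 to 0.973), while in Ifng cells their ratios of 0.962 (0.757 to 1.23) and 0.879 (0.637 to 1.22) lay within counting error of 1. The efflux sum was higher in MC38-Ova, with 30.7 CPM against 7.66 CPM in B16-Ova granzyme C/F cells, a ratio of 4.004 (2.22 to 7.49), and 49.9 CPM against 25.1 CPM in B16-Ova Ifng cells, a ratio of 1.98 (1.43 to 2.80). The granzyme C/F ratio rests on 36 UMIs in MC38-Ova and 18 UMIs in B16-Ova. Median depth was 13057 RNA UMIs in MC38-Ova and 16160 in B16-Ova granzyme C/F cells, and 8760 and 11390 in MC38-Ova and B16-Ova Ifng cells. The 10 cycling genes summed to 630 CPM in MC38-Ova and 1116 CPM in B16-Ova granzyme C/F cells, and to 717 and 1188 CPM in MC38-Ova and B16-Ova Ifng cells. Macrophage markers summed to 10.2 CPM in MC38-Ova and 101 CPM in B16-Ova granzyme C/F cells, and to 31.5 and 22.1 CPM in MC38-Ova and B16-Ova Ifng cells, and the part of depth, cycling and these markers in the ratios was not tested.

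**Figure D4:**
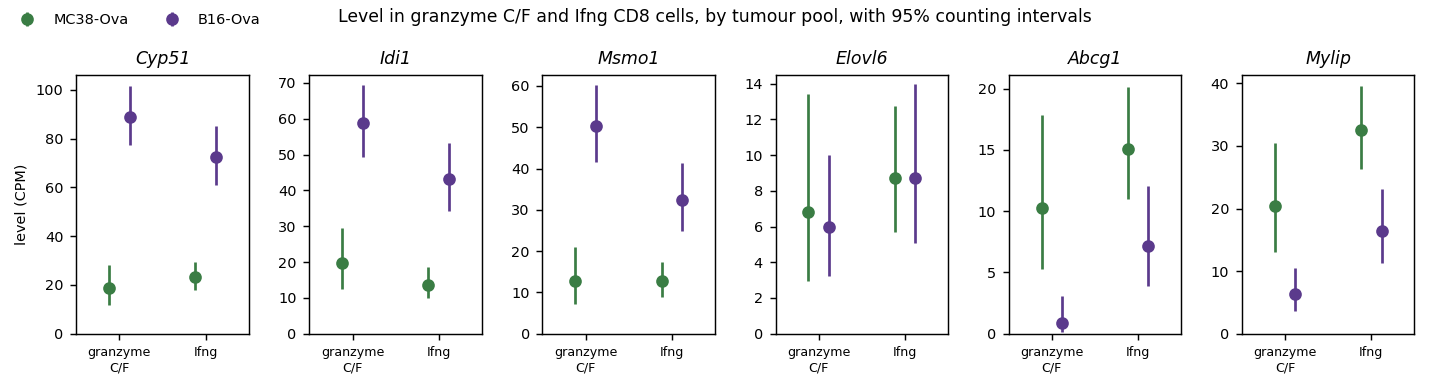
Level (CPM) of 6 members in granzyme C/F and Ifng CD8 cells, with MC38-Ova in green at left and B16-Ova in purple at right; points are sums of cells and bars are exact 95% intervals for counting error. Cyp51 stands at 18.7 CPM in MC38-Ova and 88.9 CPM in B16-Ova granzyme C/F cells, and Elovl6 at 6.81 and 5.96 CPM in MC38-Ova and B16-Ova granzyme C/F cells, with overlapping bars.

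With all cells no member was called for L-Pha binding, and 4 of 32 tested members were called for PD-1 in CD8 cells. Cells of the top and bottom quartile of a tag were compared within deciles of RNA depth. In CD8 cells the high and low groups had medians of 791.5 and 202.5 L-Pha UMIs in MC38-Ova and 998 and 212 in B16-Ova. L-Pha called 0 of 32 tested members in CD8 cells (0.294% of genes higher and 0.127% lower) and 0 of 28 in Treg cells (0.294% higher and 0.0353% lower) by edgeR. At an unadjusted edgeR p under 0.05 there were 1 (Elovl6) and 3 members (Cyp51, Msmo1, Mylip), against 1299 of 10212 and 1018 of 8502 genes. PD-1 called 0 of 29 members in Treg cells (0.798% higher and 0.49% lower), with 1 (Idi1) at an unadjusted edgeR p under 0.05, against 698 of 8776 genes. DESeq2 called 0 members in each of these 3 contrasts. An exception came from leaving out cells with a Mki67 or Top2a UMI, where edgeR called 1 member, Elovl6, lower for L-Pha in CD8 cells. In CD8 cells PD-1 called 1 of 23 sterol genes higher, and 2 of 6 tested fatty acid genes and Mylip lower. Of 10264 genes 5.45% were higher and 4.56% lower, so the sterol share was close to that of all genes. Cyp51 stood at 22.9 and 79.9 CPM in PD-1-high cells of MC38-Ova and B16-Ova, against 20.9 and 49.3 CPM in PD-1-low cells (log2 fold 0.43 ± 0.14, edgeR adjusted p = 0.050). Fasn stood at 18.9 and 23.3 CPM in PD-1-high cells, against 29.1 and 32.6 CPM in PD-1-low cells (log2 fold -0.59 ± 0.15, edgeR adjusted p = 0.012), with no overlap. Fads1 (log2 fold -1.18) and Mylip (log2 fold -0.47) were lower. Cycling genes summed to 357 and 950 CPM in PD-1-high cells, against 634 and 1004 CPM in PD-1-low cells, and fibroblast markers to 21.8 and 8.75 CPM, against 95.1 and 22.0 CPM. Macrophage markers summed to 110 and 101 CPM in PD-1-high cells, against 18.6 and 42.7 CPM in PD-1-low cells, and melanoma markers to 23.9 and 378 CPM, against 42.4 and 512 CPM. Cyp51, Msmo1 and Abcg1 were called, and Fasn was not, without cells holding a non-T marker UMI. With quartiles taken over the whole class, or with terciles, 0 members were called.

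Sterol genes also varied together from cell to cell. Cells of a class and pool were ranked by the share of their UMIs from the other sterol enzymes, within deciles of RNA depth, and the held-out member was read in the top and bottom quartile. No test was made, since the groups were formed from the list. In CD8 cells the median ratio of high over low was 1.46 over 14 sterol members with at least 100 UMIs in MC38-Ova and 2.47 over 19 in B16-Ova. In Treg cells it was 1.65 over 10 members in MC38-Ova and 3.12 over 13 in B16-Ova. Cyp51 stood at 31.3 and 112 CPM in sterol-high CD8 cells of MC38-Ova and B16-Ova, against 13.7 and 34.7 CPM in sterol-low cells. Idi1 stood at 20.1 and 72.8 CPM in sterol-high cells, against 10.6 and 21.4 CPM in sterol-low cells, and Hmgcs1 at 35.2 and 82.8 CPM, against 16.2 and 30.7 CPM. Insig1, which is no enzyme of the pathway, had ratios of 1.42 in MC38-Ova and 3.12 in B16-Ova, and Srebf2 had ratios of 1.24 and 2.08. Stard4 had ratios of 1.35 in MC38-Ova and 2.05 in B16-Ova, and Scap had 1.41 and 1.13. The 4 control genes thus had ratios above 1 in both pools, but without cells holding a non-T marker UMI Srebf2 had 0.989 in MC38-Ova. Ggps1 did not, with ratios of 0.945 in MC38-Ova and 0.754 in B16-Ova, and Ebp was weakly related, with 1.19 and 1.35. Scd2 had ratios of 1.64 in MC38-Ova and 2.87 in B16-Ova, Fasn 1.29 and 1.48, and Acly 1.09 and 1.29. Mylip went the other way, with 0.828 in MC38-Ova and 0.437 in B16-Ova. Melanoma markers summed to 44.1 and 745 CPM in sterol-high CD8 cells of MC38-Ova and B16-Ova, against 16.4 and 17.1 CPM in sterol-low cells, and cycling genes to 782 and 1201 CPM, against 327 and 622 CPM. Fibroblast markers summed to 59.9 and 14.8 CPM in sterol-high cells, against 6.16 and 5.29 CPM in sterol-low cells. Macrophage markers differed in opposite directions, with 26.1 and 83.0 CPM in sterol-high cells of MC38-Ova and B16-Ova, against 113 and 15.6 CPM in sterol-low cells. Without cells holding a non-T marker UMI the CD8 medians were 1.25 in MC38-Ova and 2.28 in B16-Ova. The B16-Ova Treg median was then also below its value of 3.12 with all cells.

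**Figure D5:**
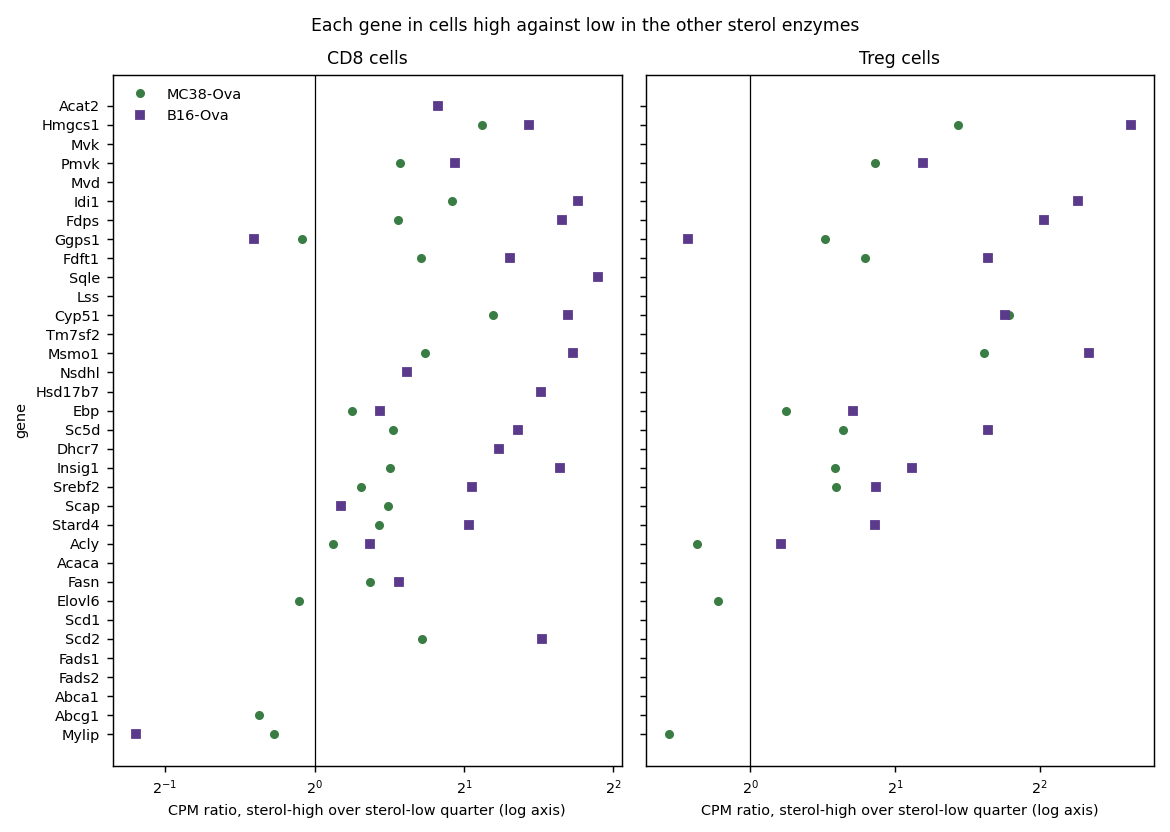
CPM ratio of each held-out member in sterol-high over sterol-low cells, on a log axis, in CD8 and Treg cells of MC38-Ova (circles) and B16-Ova (squares), for members with at least 100 UMIs in both groups together. In CD8 cells Cyp51 lies at 2.29 in MC38-Ova and 3.24 in B16-Ova, Ggps1 lies below 1 in both pools, and Mylip lies at 0.828 and 0.437.

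Among 5239 genes of at least 20 CPM in CD8 cells, members included, likeness was taken as the lower of the 2 pools' ratios of sterol-high over sterol-low cells. Its median was 1.02 and the 99th percentile 1.67. The 10 non-members most like the sterol enzymes were Cd63, Gzmd, Dct, Gzme, Tyrp1, Gpnmb, Cenpf, Rrm2, Birc5 and Tmem97. Dct and Tyrp1 are melanoma markers, and Dct stood at 197 CPM in sterol-high and 4.09 CPM in sterol-low B16-Ova CD8 cells. Gzmd and Gzme encode granzymes, and Gzmd stood at 41.1 and 67.9 CPM in sterol-high cells of MC38-Ova and B16-Ova, against 10.6 and 12.5 CPM in sterol-low cells. Cenpf, Rrm2 and Birc5 are expressed in dividing cells. Tmem97, a sterol-responsive gene of the endoplasmic reticulum, had ratios of 2.21 in MC38-Ova and 2.33 in B16-Ova. Gzmd, Rrm2 and Birc5 stayed among the 10 without cells holding a non-T marker UMI, with Gzmd ratios of 4.35 in MC38-Ova and 3.02 in B16-Ova. Cd63, Gzme, Gpnmb, Cenpf and Tmem97 were then outside the 10. Dct and Tyrp1 had to drop out, as they are among the markers by which cells were left out.

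Lipid genes outside the list gave scattered calls. Of 10 further genes linked to SREBP, 2 rose and 1 fell with cycling in CD8 cells, against 14.9% of all genes higher and 12.5% lower, and their median log2 fold was 0.08. In Treg cells 3 rose and 1 fell with cycling, against 16.4% higher and 12.9% lower, with a median log2 fold of -0.03. Tmem97 rose by a log2 fold of 1.95 ± 0.17 with cycling in CD8 cells (edgeR adjusted p = 6.9e-09) and 2.12 ± 0.23 in Treg cells (edgeR adjusted p = 1.6e-11). It had 19.4 CPM in MC38-Ova and 34.3 CPM in B16-Ova CD8 cells. Cyb5b rose with cycling in CD8 (log2 fold 0.58) and Treg (0.66) cells, and Aacs, which makes acetoacetyl-CoA, rose in Treg cells (0.70). Acss2, which makes acetyl-CoA from acetate, fell with cycling in CD8 (-1.23) and Treg (-0.98) cells. Of 7 tested genes of LXR and lipid storage, Arl4c and Smpdl3a fell with cycling in CD8 and in Treg cells, while Lpcat3 rose in Treg cells. Arl4c, an LXR target, stood at 136 CPM in MC38-Ova and 77.1 CPM in B16-Ova CD8 cells, a ratio of 1.77 (1.65 to 1.89), and was lower in PD-1-high than in PD-1-low CD8 cells (log2 fold -0.41). Smpdl3a was lower in CD8 than in CD4 cells (log2 fold -0.62) and than in Treg cells (-0.58). Plin2, which coats lipid droplets, was lower in CD8 than in Treg cells (log2 fold -1.27 ± 0.25, edgeR adjusted p = 0.014) and higher in PD-1-high than in PD-1-low CD8 cells (0.58). Among genes of elongation, Hacd2 was higher in CD8 than in Treg cells (log2 fold 0.50) and in PD-1-high than in PD-1-low CD8 cells (0.44). Hacd3 was lower in CD8 than in Treg cells (log2 fold -0.77) and in innate-like than in CD4 cells (-0.76), and Hsd17b12 rose with cycling in CD8 (0.40) and Treg (0.85) cells. Of 10 genes of fatty acid oxidation only Acadl was called, higher with cycling in CD8 cells and in PD-1-high CD8 cells. Of 15 glycolysis genes, 6 rose with cycling in CD8 cells (14.9% of all genes higher), 5 with cycling in Treg cells (16.4%) and 8 in PD-1-high CD8 cells (5.45%), and 0 fell in these contrasts. Glycolysis genes were called lower in innate-like than in CD4 cells, 7 of 15 against 5.12% of all genes, and in CD8 than in Treg cells, 3 of 15 against 8.41%. In Treg over CD4 cells 2 were higher, against 1.98% of all genes.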

How the data were processed

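RNA and antibody tags were measured in T cells of 2 hashtagged tumour pools from 1 droplet capture. The authors deposited raw counts of UMIs per gene or tag and cell; the submitters' processing notes name Cell Ranger 3.1.0, R 3.6.1, Seurat 3.1.0 and mm10, and the matrix header gives software version 3.0.2. T cell receptor sequences were not used here. Cells needed at least 500 genes, at most 10% mitochondrial UMIs, and one hashtag of at least 150 UMIs and 3 times the other. The 2388 cells with both hashtags at 150 UMIs or more and neither 3 times the other were dropped. Doublets between pools with more unequal hashtags can remain, and no doublet caller was run. CD8 cells held at least 2 Cd8a and Cd8b1 UMIs with no Cd4 or Foxp3, Treg cells held Foxp3 without Cd8, CD4 cells held Cd4 without Foxp3 or Cd8, and innate-like cells held Cd3e and at least 2 Fcer1g and Tyrobp UMIs. The other 3387 MC38-Ova and 2808 B16-Ova cells entered no class.

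Counts were summed per group and pool and tested with edgeR 4.0.16 (TMM scaling, filterByExpr, pool as a block, Benjamini-Hochberg over all tested genes) in R 4.3.3, and DESeq2 1.42.0 was an alternative. With 1 to 3 residual degrees of freedom per fit, the spread was mostly borrowed across genes. SE was computed as the fold divided by the square root of F. Tumour ratios have exact conditional 95% intervals that cover counting error only. The fits were tested on simulated data. Alternatives were other scaling, no count filter, no pool block, stricter hashtags, an RNA band, no Mki67 or Top2a UMIs and other tag quantiles. Leaving out cells with a non-T marker UMI was added after seeing the data. Tumour ratios within cycling, granzyme C/F and Ifng cells were not planned either. A planned comparison between CD8 states is not reported here. Members and lists were chosen with earlier results of these data known. Named were members past the threshold or with at least 100 UMIs, lipid genes past the threshold and the 10 non-members most like the sterol enzymes.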

Additional observations from a re-analysis of the deposited data

Results flagged for a closer look

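The pools moved in opposite directions for a pair of members, but no test of that difference was made. Fasn in Treg over CD4 cells had a ratio of 0.687 (0.546 to 0.866) in MC38-Ova and 1.32 (1.00 to 1.75) in B16-Ova. Idi1 in PD-1-high over PD-1-low CD8 cells had a ratio of 0.538 (0.370 to 0.775) in MC38-Ova, with 8.81 CPM in PD-1-high and 16.4 CPM in PD-1-low cells, and 1.47 (1.19 to 1.83) in B16-Ova, with 50.5 CPM in PD-1-high and 34.2 CPM in PD-1-low cells. The intervals are exact, for counting error only.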

How the results depend on the processing

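Of 39 member calls, RLE size factors kept 37, no count filter 36, DESeq2 8 and no pool block 3. Members called were, by setting, as follows, and causes were not tested. Brackets give all genes called higher and lower, of those tested. DESeq2 called 1 in Treg over CD4 (268 and 199 of 11188) and 3 with cycling in CD8 (687 and 348 of 10537). It called 0 with cycling in Treg (453 and 197 of 9163) and 0 for PD-1 in CD8 cells (109 and 40 of 10264). Without the pool block 0 were called in innate-like over CD4 (300 and 314 of 11188) and 1 in CD8 over Treg (432 and 484 of 11188). It left 2 with cycling in CD8 (640 and 145 of 10537), 0 in Treg (794 and 320 of 9163) and 0 for PD-1 in CD8 (0 and 0 of 10264). Without the count filter 1 was called in Treg over CD4 (390 and 317 of 18055) and 5 in innate-like over CD4 (576 and 746 of 18055). Among cells of 5000 to 15000 RNA UMIs 3 were called in Treg over CD4 (392 and 246 of 10066). In this band 5 were called in innate-like over CD4 (546 and 611 of 10066) and 10 in CD8 over Treg (1030 and 1260 of 10066). With cycling it held 8 in CD8 (1094 and 609 of 9658) and 0 in Treg (505 and 243 of 7702). There Fasn with cycling in CD8 (-0.056) and Fdps with cycling in Treg (-0.27) turned direction. Without Mki67 or Top2a UMIs 2 were called in CD8 over CD4 (589 and 594 of 9988). This setting called 11 in innate-like over CD4 (733 and 867 of 9988) and 8 in CD8 over Treg (1189 and 1329 of 9988). In CD8 cells it called 1 for L-Pha (240 and 183 of 9017) and 2 for PD-1 (400 and 303 of 9001). Stricter hashtags called 12 with cycling in CD8 (1218 and 873 of 10321) and 4 in Treg (1195 and 893 of 8811). Without cells holding a non-T marker UMI 2 were called in CD8 over CD4 (771 and 686 of 9772) and 1 in Treg over CD4 (304 and 219 of 9772). With cycling 7 were then called in CD8 (932 and 552 of 9636) and 2 in Treg (887 and 618 of 7600). Other PD-1 quantiles in CD8 called 0, both as quartiles over the whole class (11 and 0 of 10333) and as terciles (327 and 208 of 10579).

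MC38-Ova over B16-Ova ratios kept their direction under TMM scaling. Brackets here give the sterol genes lower past 1.5-fold and then the share of all measured genes lower. Among cells of 5000 to 15000 RNA UMIs the sterol ratio was 0.722 in CD8 (9, 2.27%), 0.680 in CD4 and 0.852 in innate-like cells (1, 1.98%). In this band efflux in CD8 was 1.5004, and the fatty acid ratio turned to 0.884 in Treg and 0.876 in CD4. Without Mki67 or Top2a UMIs sterol was 0.752 in CD8 (7, 1.94%), 0.657 in Treg (7, 3.19%) and 0.864 in innate-like (2, 1.78%). Efflux in CD8 was then 1.47, and fatty acid was 0.992 in Treg and 1.01 in CD4. Stricter hashtags gave sterol 0.625 in CD8 and 0.947 in innate-like (0, 1.65%), and fatty acid 1.26 in innate-like. Without cells holding a non-T marker UMI fatty acid turned to 0.906 in Treg, 0.828 in CD4 and 1.08 in innate-like. Sterol was then 0.710 in CD4 and 0.9496 in innate-like (1, 2.08%). In Treg cells efflux was 2.32, with 9 sterol genes lower (3.84% of all genes), and the B16-Ova Treg co-variation median was 2.04. Past 2-fold 7, 5, 1 and 1 sterol genes were lower in CD8, Treg, CD4 and innate-like, against 1.77%, 0.95%, 0.44% and 0.395% of all genes. Granzyme C/F cells gave sterol 0.590, fatty acid 0.789 and efflux 4.004. Ifng cells gave sterol 0.566 (7, 6.51%). Cycling CD8 cells gave sterol 0.616, fatty acid 1.15 and efflux 4.33, and cycling Treg cells gave sterol 0.592 (9, 5.06%). Alternatives planned for contrasts of CD8 states were not run. No paired analysis was possible because each tumour was 1 pool; the pool itself was the block within pools. Low UMI counts limit Scd1, Fads2, Abca1 and Tm7sf2.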
